A study of Chlorocebus sabaeus with 18 samples.

Results

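The comparison described here sets COS-7 cells carrying an expanded CGG repeat against untreated COS-7 cells, and covers 6 of the 18 samples of the series. COS-7 cells derive from monkey kidney (African green monkey). The CGG group (3 libraries) had been transfected with the FMR1 leader carrying 60 CGG triplets, and the CTL group (3 libraries) is labelled only as control COS-7. Both were chosen by their labels. A pair of other transfected groups of 3 libraries each served to show where the repeat differed from another treatment: cells overexpressing TRA2A (titled GFP_TRA, here TRA_OE) and cells with TRA2A knocked down (siTRA). The remaining groups carry the repeat together with TRA2A knockdown (CGG_siTRA, 3 libraries, used for the spread between libraries) or with TRA2A overexpression (3 samples without gene counts here). No sample is labelled as transfected with an empty vector or a repeat of normal length, so the repeat and the transfection itself cannot be told apart in CGG vs CTL. The labels of CTL, CGG, TRA_OE and siTRA do not say whether the libraries of a group come from separate cultures (titles of CGG_siTRA samples speak of the first and the third round), and p-values then measure only the spread between these libraries, which may be technical.

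CGG triplets lie in the leader of FMR1, and an intermediate expansion of them underlies the tremor and ataxia disorder FXTAS. The expanded RNA can gather RNA-binding proteins into inclusions in the nucleus, and it can also be translated without a start codon into repetitive proteins. TRA2A is a splicing factor that promotes the inclusion of exons with purine-rich enhancers, and the series title speaks of its recruitment in FXTAS.

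The deposited tables list genes by Ensembl identifiers of the human genome, and neither they nor the reference table used here pair an identifier with a gene name (0 of 23133). Genes are therefore given by their place on GRCh38, the human build the reads were aligned to, with the labels R1 to R12 for the 12 largest rises and F1 to F12 for the 12 largest falls. Only 4 identifiers are printed. Names, functions, pathways and cell type markers were not assigned to them. A level below is the count over all exon bins of a gene divided by the authors' size factor of the library, called a normalised count. It depends on gene length and on how well monkey reads match the human sequence, so levels of different genes are not compared.

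Counts over exon bins totalled 155994302 to 181571523 in the CTL libraries and 141531899 to 203957869 in the CGG libraries. Across the 14969 genes tested, log2 levels of CTL libraries correlated at 0.9928 to 0.9932 with each other, those of CGG libraries at 0.9908 to 0.9923, and those between the groups at 0.9859 to 0.9886. These correlations are across genes, which are not independent replicates. Library b of siTRA stood apart from its group, at 0.9796 to 0.9818 against 0.9922 between the other two. The gene taken as TRA2A (chromosome 7, 23504780 to 23532041, minus strand) was the only one at least 2-fold higher with overexpression and at least 2-fold lower with each knockdown. Since that behaviour is what picked it, it can check the labels only weakly. Its normalised counts were 17143, 17234 and 16913 in CTL and 17032, 15675 and 16050 in CGG, against 204614 ± 17346 (SD, n = 3) in TRA_OE and 3914 ± 917 in siTRA. CGG and CTL overlapped for this gene, and the log2 fold change was -0.05 (SE 0.101, adjusted p = 0.767, edgeR).

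The first question was which genes differed in level between repeat-bearing and untreated cells. Of 14969 genes or groups of overlapping genes, 3613 (24.1%) passed the test at an adjusted p under 0.05, with 1776 (11.9%) higher and 1837 (12.3%) lower in CGG. Most differences were small: 2665 of the called genes (73.8%) changed less than 1.5-fold, and the median absolute log2 fold change of called genes was 0.39. At least 2-fold differences numbered 174 higher and 184 lower, and at least 4-fold differences 45 higher and 23 lower. The libraries of CGG and CTL did not overlap for 7569 genes (50.6%), among them 3600 of the called genes. With the 2 groups fitted alone instead of with all 15 libraries, 6265 genes were called. The plot of all genes shows the spread of changes over the range of levels.

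**Figure D1:**
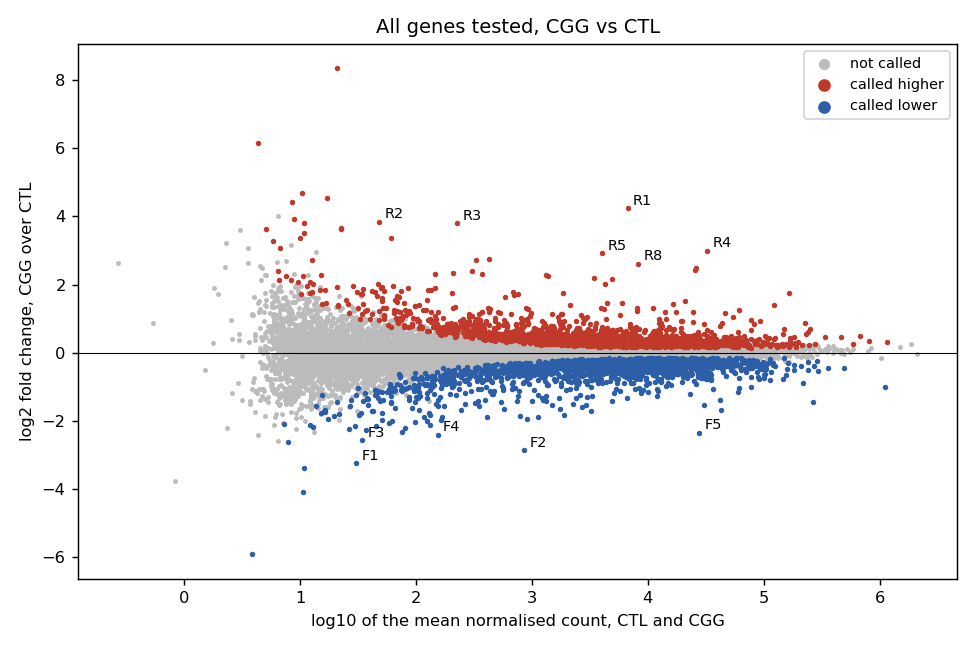
Each point is 1 of 14969 genes or gene groups, with the log10 mean normalised count over the CTL and CGG libraries on the x axis and the log2 fold change of CGG over CTL on the y axis. Red points (1776) were called higher and blue points (1837) lower. R and F labels mark 11 of the named genes, and the 9 genes with changes beyond those of R1 and F1 have group means of at most 41.8.

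Genes called at least 2-fold higher or lower made up a small share of the RNA counted. Genes called at least 2-fold higher held 0.223% to 0.236% of counts in CTL libraries and 0.638% to 0.689% in CGG libraries. Those at least 2-fold lower went from 1.44% to 1.76% in CTL to 0.711% to 0.743% in CGG. These genes were chosen on the same libraries, so the shares describe their weight and are no test.

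Genes are named if they do not overlap others, reach a mean of 50 in either group and have no overlap between the groups' libraries. The largest rise among them was that of R1 (ENSG00000198074.9, chromosome 7, 134527592 to 134541408). Its normalised counts were 674, 741 and 640 in CTL and 12385, 12755 and 12920 in CGG, with no overlap between the groups. The log2 fold change was 4.23 (SE 0.161, adjusted p = 4.89e-12), an 18.8-fold rise. R3 lies 23380 bases further along the same chromosome (134564788 to 134579875) and is the next gene tested. It counted 60.1, 21.4 and 12.7 in CTL and 422, 458 and 384 in CGG. Its CTL libraries differed among themselves: the log2 fold change of 3.79 (SE 0.334) became 4.63 without CTL library a. Genes with near-identical copies can share reads, and how the authors treated such reads is not given in the sources used here.

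R2 (ENSG00000105550.8, chromosome 19, 48755559 to 48758330) was nearly silent in CTL, at 4.29, 8.37 and 5.85, and reached 81.7, 95.3 and 91.0 in CGG (log2 fold change 3.84, SE 0.493, adjusted p = 1.68e-05). A second gene on that chromosome, R5 (18382170 to 18389176), rose from 952 ± 108 to 7072 ± 935 (log2 fold change 2.92). Its CGG libraries counted 5998, 7514 and 7704, each above the highest CTL library at 1029.

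Several of the largest rises were in abundantly counted genes, where the counting error is small. R4 (chromosome 22, 35380361 to 35394214) counted 7026, 7927 and 7097 in CTL and 51518, 60953 and 60405 in CGG, which is 7.97-fold by the fit (log2 fold change 2.99, SE 0.130, adjusted p = 2.13e-11). R9 (chromosome 5, 179806398 to 179838078) counted 8176, 8137 and 7780 in CTL and 39811, 46105 and 45923 in CGG. R10 (chromosome 4, 87975650 to 87983426) counted 8320, 8466 and 7525 in CTL and 42479, 41169 and 43751 in CGG. The log2 fold changes of R9 and R10 were 2.48 and 2.41, and in both the lowest CGG library was far above the highest CTL library. R8 (chromosome 7, 23236668 to 23275108) rose from 2372 ± 35.3 to 14211 ± 515 (log2 fold change 2.61, SE 0.102, adjusted p = 5.35e-12).

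The remaining rises were in genes of lower level. R6 (chromosome 11, 78063861 to 78068351, 2 exon bins) rose from 112 ± 31.6 to 746 ± 65.4. R7 (chromosome 9, 128149441 to 128153455) rose from 88.0 ± 27.1 to 568 ± 15.7, and R11 (chromosome 4, 73740506 to 73743716) from 98.0 ± 9.25 to 508 ± 57.2. R12 (chromosome 14, 93934153 to 93976730) closed the list, at 76.2, 84.6 and 47.8 in CTL and 355, 359 and 334 in CGG. Their log2 fold changes were 2.76, 2.71, 2.39 and 2.35. The gene ranked next after R12 had 2.31, so the border of the list is no break in the data.

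The falls were led by F1 (ENSG00000135333.13, chromosome 6, 93240020 to 93419547), at 67.6, 49.3 and 48.8 in CTL and 7.10, 8.04 and 2.44 in CGG (log2 fold change -3.25, SE 0.507, adjusted p = 0.000129). F2 (ENSG00000120937.8, chromosome 1, 11857464 to 11858931) went from 1542, 1607 and 1386 to 210, 219 and 185. This is a 7.28-fold fall by the fit (log2 fold change -2.86, SE 0.192, adjusted p = 7.21e-09). The fall with the smallest error was that of F5 (chromosome 17, 80467148 to 80477843), from 45864, 46854 and 47066 to 8839, 9158 and 9050, with a log2 fold change of -2.35 (SE 0.0834, adjusted p = 2.59e-12). Libraries of a group differed by little for F5, and it was the only one of the 12 falls with a mean above 1000 in CGG.

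F4 (chromosome 4, 118850688 to 119061245) fell from 259 ± 21.2 to 48.0 ± 10.7, and F11 (chromosome 9, 27109141 to 27230173) from 200 ± 11.7 to 48.8 ± 7.51. F10 (chromosome 13, 21671383 to 21704498) fell from 159 ± 18.3 to 37.6 ± 10.2, and F7 (chromosome 2, 240886048 to 240896156) from 132 ± 13.5 to 28.0 ± 6.78. In all 4 the highest CGG library, at 60.4, 57.4, 45.5 and 35.6, stayed below the lowest CTL library, at 243, 192, 143 and 121. F12 (chromosome 2, 225400561 to 225654018) fell from 99.6 ± 17.3 to 24.5 ± 7.73, F8 (chromosome 3, 111592900 to 111595443) from 73.7 ± 8.11 to 16.5 ± 4.02, and F3 (chromosome 15, 38885470 to 39420951) from 58.6 ± 5.03 to 9.57 ± 1.69.

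The calls of F6 and F9 were lost without any of several libraries, while their log2 fold changes stayed negative. F6 (chromosome 12, 190077 to 210043) counted 82.7, 50.2 and 51.7 in CTL and 9.47, 17.2 and 10.6 in CGG, and its adjusted p of 0.027 rose to 0.0983 without CTL library a, 0.0865 without CGG library a and 0.092 without CGG library c, with log2 fold changes of -2.01, -2.14 and -2.17. F9 (chromosome 12, 71439770 to 71586306) counted 100.9, 56.7 and 126 in CTL and 28.4, 28.7 and 10.6 in CGG. Its adjusted p of 0.0179 rose to 0.0538 without CTL library a, 0.0855 without CTL library c and 0.0875 without CGG library c, with log2 fold changes of -2.02, -1.79 and -1.71. With its most counted bin standing for the gene, F9 had a log2 fold change of -1.18 and an adjusted p of 0.334. With limma the adjusted p was 0.116 for F6 and 0.071 for F9. With all libraries the log2 fold changes of F6 and F9 were -2.28 and -2.07. The gene ranked next after F12 had -1.98.

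Genes of still lower level held 8 called changes beyond those of R1 and F1, 5 higher and 3 lower, with group means of at most 41.8. A gene on chromosome 3 (185959943 to 185980872) was at 0 in all 3 CTL libraries and at 52.1, 36.7 and 36.6 in CGG (adjusted p = 2.51e-05). One on chromosome 4 (121132283 to 121216500) was at 0, 3.72 and 0 in CTL and 43.8, 25.3 and 29.3 in CGG (adjusted p = 0.00252). In the other direction, a gene on chromosome 2 (203867786 to 203873960) was at 19.3, 16.7 and 24.4 in CTL and 0, 3.44 and 0 in CGG (adjusted p = 0.00847). Such genes were close to undetected in either CTL or CGG, and their fold changes rest on few reads.

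**Figure D2:**
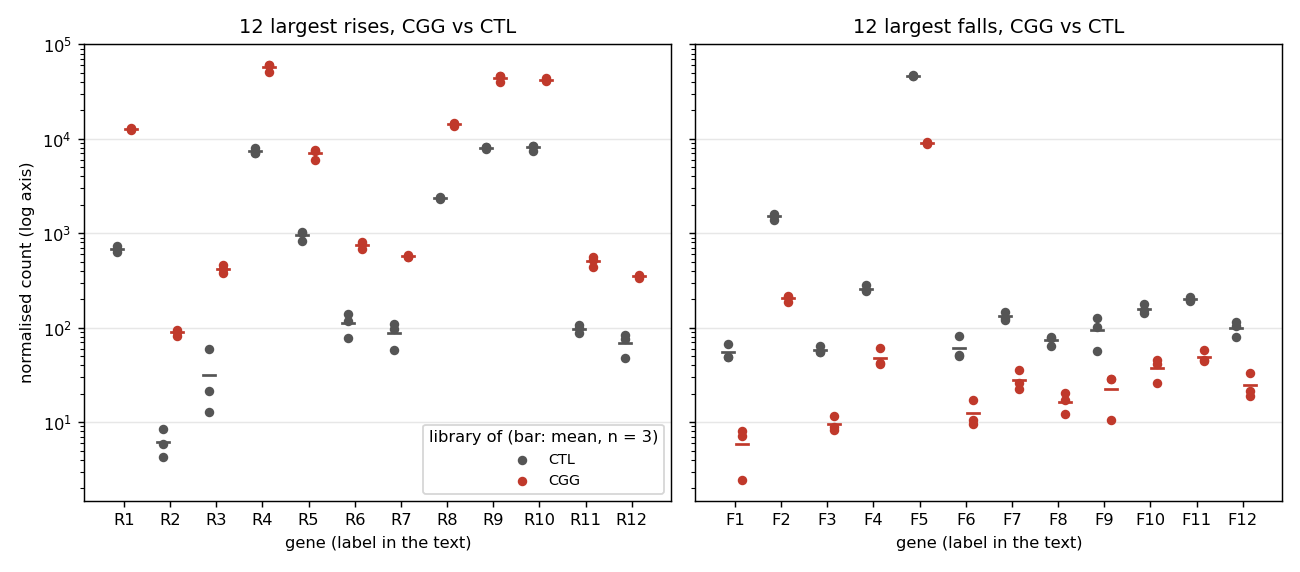
Normalised counts on a log axis for the 12 largest rises (left) and the 12 largest falls (right), with 1 point a library and a bar at the mean of 3 libraries. In every gene the CTL (grey) and CGG (red) libraries are apart, as the naming rule required, and R1, R4, R5, R8, R9, R10, F2 and F5 hold the highest counts.

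Differences of smaller fold but large size in counts were found in a further set of genes, chosen after their values were seen as the largest changes in normalised count. A gene on chromosome 2 (215360440 to 215436172) fell from 1487050 ± 205821 to 728495 ± 18705 (log2 fold change -1.01, adjusted p = 1.02e-05), with a much wider spread among CTL than among CGG libraries. One on chromosome 15 (39581079 to 39599466) fell from 394335 ± 27468 to 140907 ± 6537 (log2 fold change -1.46). Among the rises, a gene on chromosome 19 (48965301 to 48966878, 4 exon bins) went from 76467 ± 5025 to 255239 ± 1773 (log2 fold change 1.76). A gene on chromosome 12 (124911604 to 124917368) went from 163298 ± 6537 to 291592 ± 9208 (log2 fold change 0.86, adjusted p = 3.16e-08).

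Some adjacent genes changed in the same direction. Of 9947 neighbouring pairs of single genes less than 100 kb apart, 3 were both at least 2-fold higher, 5 both at least 2-fold lower, and 2 split between the directions. The R1 and R3 pair is one of the 3. Another lies on chromosome 10, where a gene at 4963253 to 4983283 counted 59.6 ± 13.8 in CTL and 210 ± 32.6 in CGG and its neighbour at 4987400 to 5015234 counted 56.1 ± 6.37 and 197 ± 35.7. The other is on the same chromosome (89327894 to 89340971 and 89392546 to 89406486), with 313 ± 28.8 and 124 ± 11.03 in CTL against 1048 ± 70.4 and 310 ± 24.02 in CGG. On the falling side, neighbours on chromosome 18 (58481247 to 58611817 and 58671386 to 58754477) went from 64616 ± 1885 and 60702 ± 2363 to 19960 ± 2066 and 22822 ± 1035. Over all called pairs, 186 were both higher, 190 both lower and 215 opposed. Of all genes tested, 11.9% were called higher and 12.3% lower. Whether neighbours went together more often than other genes was not tested, nor was the sharing of reads within these pairs.

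The direction of change varied with the length of the gene in the genome. Of 3012 genes spanning over 100 kb, 8.63% were called higher and 22.9% lower in CGG. Of 3049 genes spanning under 10 kb, 12.3% were called higher and 5.97% lower. The share called lower increased with each class and the share called higher was largest in the next shortest class, with 14.3% higher and 8.04% lower at 10 to 30 kb and 11.6% higher and 13.2% lower at 30 to 100 kb. The median log2 fold change was 0.08 under 10 kb, 0.05 at 10 to 30 kb, -0.01 at 30 to 100 kb and -0.08 over 100 kb. With the authors' size factors in place of TMM scaling these medians were 0.05, 0.03, -0.03 and -0.11, in the same order. Genes over 100 kb were called lower more often than higher with DESeq2 (25.3% against 9.76%) and limma (24.7% against 7.17%) as well.

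The same held library by library for the long genes. Their median log2 deviation from the mean of the 6 libraries was 0.06, 0.04 and 0.07 in CTL and -0.03, -0.06 and -0.05 in CGG, with no overlap. For genes under 10 kb it was 0.004, 0.015 and -0.080 in CTL and 0.016, 0.060 and 0.021 in CGG, where the groups were apart by less than the spread within either. An exact test of 3 libraries against 3 cannot give a two-sided p below 0.10, and none is given. The shift is small beside the changes of single named genes, and long genes also have more bins and other levels than short ones: of genes with over 30 bins 17.1% were called lower and 11.4% higher, and of those with 2 to 5 bins 5.95% and 8.11%. The part of bin number in the shift was not tested.

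**Figure D3:**
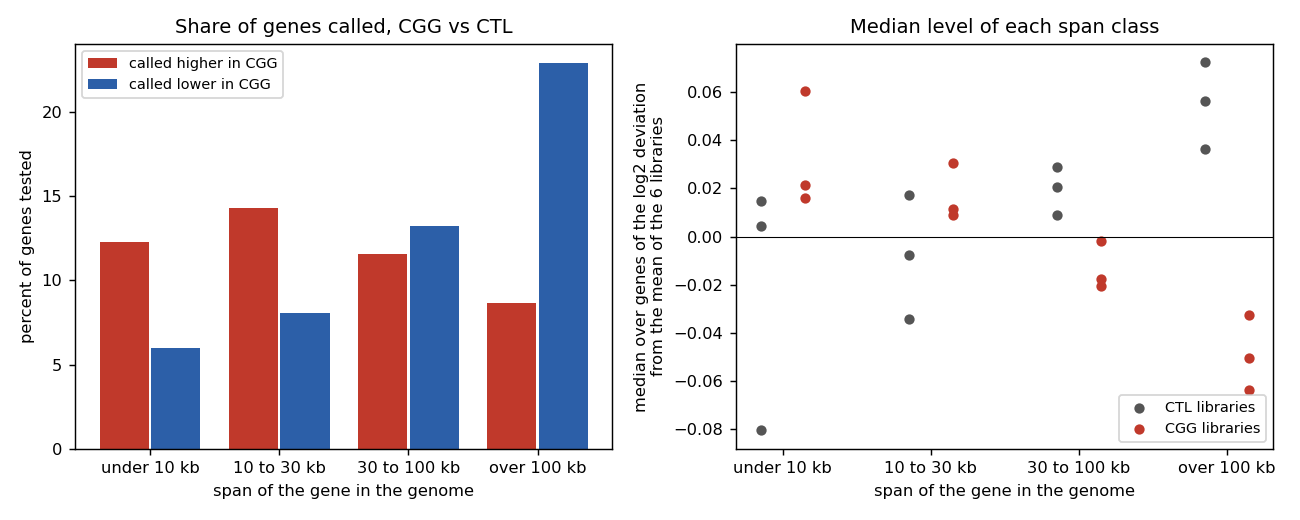
Left, the percent of tested genes called higher (red) or lower (blue) in CGG in 4 classes of genomic span. Right, for each library of CTL (grey) and CGG (red), the median over the genes of a class of the log2 deviation from the mean of the 6 libraries. The share called lower climbs from 5.97% under 10 kb to 22.9% over 100 kb, and CTL and CGG points are apart in the longest class.

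The same classes can be followed in the comparisons of CGG with other transfected cells. Over 100 kb, 7.5% were higher and 2.95% lower in CGG than in TRA_OE, with a median log2 difference of 0.02. Against siTRA, 7.93% were higher and 8.37% lower, with a median of -0.04. The TRA_OE and siTRA groups were themselves at -0.13 and -0.05 for this class relative to CTL, a comparison that shares the CTL libraries with CGG vs CTL. By library, siTRA deviated by -0.09, 0.02 and -0.10. TMM minus the authors' log2 scaling was 0.009 to 0.021 in CGG, 0.039 to 0.061 in TRA_OE and -0.047 to 0.022 in siTRA libraries. Medians of this size may therefore depend on the scaling, and these comparisons were not recounted by class with the authors' size factors.

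By chromosome, the share called varied between 16.1% on chromosome 19 (9.48% higher, 6.58% lower, of 1034 genes) and 29.0% on chromosome 18 (12.7% higher, 16.3% lower, of 221 genes) among the autosomes. Chromosome 13 leaned to falls (18.1% lower, 9.26% higher, of 270 genes). Chromosome 14 leaned to rises (16.1% higher, 10.8% lower, of 472 genes). The share called also followed the level, from 6.75% of genes with a mean normalised count under 100 to 33.4% of those over 10000, while the share changed at least 2-fold went the other way (2.71% higher and 2.91% lower under 100, 0.398% and 0.341% over 10000).

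The next question was how the repeat-bearing cells differed from the other transfected cells, since the CTL libraries are in neither group compared. The CTL libraries still help to set the scaling and the spread, because all 15 libraries were fitted together. Against TRA_OE, 1246 genes (8.32%) were called, 772 (5.16%) higher and 474 (3.17%) lower in CGG. At least 2-fold differences numbered 135 higher and 6 lower. With the authors' size factors 1467 were called, 658 higher and 809 lower, so the balance of directions depended on the scaling. Leaving out any 1 of the 6 libraries took the count to between 611 (without CGG library c) and 798 (without TRA_OE library c), and 685, 638, 699 and 678 without CGG a, CGG b, TRA_OE a and TRA_OE b.

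The gene furthest above TRA_OE was R6, whose level in TRA_OE (107, 94.2 and 122) lay within the range of CTL (78.1 to 141) while CGG stood at 674 to 801. The log2 difference between CGG and TRA_OE was 2.83 (SE 0.249, adjusted p = 1.73e-06). A gene on chromosome 8 (23841915 to 23854807) counted 84.1, 114 and 123 in CGG and 32.2, 24.7 and 24.7 in TRA_OE, with CTL between them at 64.3 ± 8.70 (log2 difference 2.01, SE 0.249, adjusted p = 5.88e-05). R11 stood at 508 ± 57.2 in CGG and 134 ± 7.20 in TRA_OE, close to the 98.0 ± 9.25 of CTL (log2 difference 1.96). The fourth was a gene on chromosome 16 (75111896 to 75116755), at 67.1 ± 8.76 in CGG and 17.7 ± 4.32 in TRA_OE (log2 difference 1.96, adjusted p = 0.00357), for which CGG and CTL did not differ by the test (adjusted p = 0.218).

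In the other direction the gene taken as TRA2A led, as the overexpressed gene itself (log2 difference -3.62). A gene on chromosome 12 (65050626 to 65121566) was at 1260, 1049 and 1175 in CGG, 3875, 4417 and 4059 in TRA_OE and 3326, 3549 and 3246 in CTL. Its log2 difference between CGG and TRA_OE was -1.79 (SE 0.0991, adjusted p = 6.71e-09), and it fell by 1.51 on the log2 scale between CTL and CGG. In siTRA this gene was at 1089 ± 159, near its level in CGG. A gene on chromosome 22 (39223359 to 39244751) was at 76.4 ± 11.7 in CGG and 156 ± 17.4 in TRA_OE, and F4 at 48.0 ± 10.7 and 96.8 ± 10.8. The calls of these last 2 were lost on leaving out single libraries: for the gene on chromosome 22 without CGG a (adjusted p = 0.0558) or TRA_OE b (0.0527), and for F4 without CGG b (0.0811), CGG c (0.0899) or TRA_OE a (0.0749).

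Against siTRA, 2331 genes (15.6%) were called, 1325 (8.85%) higher and 1006 (6.72%) lower in CGG, of which 69 were at least 2-fold higher and 36 at least 2-fold lower. With the authors' size factors 2470 were called, 1773 higher and 697 lower. The count fell to 1428 when these 2 groups were fitted alone, to 1323 without CGG library b, and to 1407 without CGG library c. It was 1818 without library b of siTRA, the one that stood apart.

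By position, the genes furthest above siTRA were one on chromosome X (103776511 to 103792616), the gene taken as TRA2A, one on chromosome 15 (41230839 to 41281890) and one on chromosome 5 (157029426 to 157059119). The gene on chromosome 15 counted 33098, 32022 and 31770 in CGG and 8022, 9178 and 7131 in siTRA (log2 difference 1.96, SE 0.0798, adjusted p = 7.64e-11), with CTL at 28284 ± 545. The gene on chromosome X spread widely in CGG (30.8, 127 and 61.0, against 9.42, 11.7 and 20.5 in siTRA), and its log2 difference of 2.33 became 1.69 without CGG library b. The gene on chromosome 5 counted 102 ± 22.9 in CGG and 27.5 ± 10.6 in siTRA.

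The genes furthest below siTRA included one on chromosome 14 (75278774 to 75282230), at 1709, 1616 and 1829 in CGG and 6736, 5338 and 2961 in siTRA (log2 difference -1.58, SE 0.201, adjusted p = 2.96e-05). One on chromosome 12 (65824131 to 65966295) was at 490 ± 91.0 in CGG and 1251 ± 47.6 in siTRA (log2 difference -1.39, adjusted p = 3.81e-06), and one on chromosome 10 (62811996 to 62816366) at 30.9 ± 14.3 and 83.0 ± 18.0. The last, on chromosome 17 (46512710 to 46550519), was at 30.5 ± 5.45 and 82.4 ± 32.9, and its adjusted p of 0.0128 rose to 0.0612 without CGG b, 0.0538 without CGG c and 0.0508 without siTRA b.

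The 24 genes named for CGG vs CTL can be followed through TRA_OE and siTRA. They were picked on both the CGG and the CTL libraries. Counts relative to CTL reuse those CTL libraries, so the choice itself favoured a like direction in TRA_OE and siTRA. Comparisons with CGG reuse the CGG libraries, so the choice also favoured a CGG mean beyond the other groups and a difference from them. The counts that follow are descriptions, and the same shares over all called genes are not given. Among the 12 rises, the mean of TRA_OE lay above that of CTL in 11 and the mean of siTRA in 12, and CGG had the highest mean of the 5 groups in 9. Among the 12 falls, TRA_OE and siTRA lay below CTL in all 12, and CGG had the lowest mean in 3. By the test, 8 of the 12 rises differed between CGG and TRA_OE and 5 between CGG and siTRA. For the falls the figure was 2 in each. Over all genes tested the shares were 8.32% and 15.6%. Those genes were not picked on CGG, so the shares are no fair background for the 12, and no excess is read from them.

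R4 and R9 stood at like levels in CGG and TRA_OE: 57625 ± 5296 and 54495 ± 4533 for R4 (log2 difference 0.12, SE 0.120, adjusted p = 0.608), and 43946 ± 3582 and 40627 ± 2216 for R9 (0.15, SE 0.0891, adjusted p = 0.338). R1, R5, R8 and R10 were lower in TRA_OE than in CGG. R1 counted 5576 ± 560 in TRA_OE and 9263 ± 2334 in siTRA against 12687 ± 274 in CGG, with log2 differences of 1.22 (adjusted p = 2.48e-05) and 0.41 (adjusted p = 0.0532). R8 counted 6724 ± 229 in TRA_OE and 12831 ± 2059 in siTRA against 14211 ± 515 in CGG, and only the first difference passed the test (adjusted p = 1.54e-06 and 0.496).

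R7 had the opposite order, at 635 ± 98.9 in TRA_OE and 227 ± 28.4 in siTRA against 568 ± 15.7 in CGG. Its difference passed the test against siTRA (log2 1.28, adjusted p = 3.55e-05) and missed it against TRA_OE (log2 -0.12, adjusted p = 0.688). R10 and R11 were higher in siTRA than in CGG, at 51949 ± 7900 and 743 ± 162 (log2 differences -0.33 and -0.58, adjusted p = 0.0291 and 0.0122). Among the falls, F5 was at 8550 ± 638 in TRA_OE and 8706 ± 1223 in siTRA, against 9015 ± 162 in CGG, and neither difference passed the test (adjusted p = 0.433 and 0.923). F1 was lower in CGG (5.86 ± 3.00) than in TRA_OE (24.3 ± 7.62, adjusted p = 0.0213) and siTRA (21.4 ± 9.22, adjusted p = 0.0186). A p above the threshold does not show that levels are alike.

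**Figure D4:**
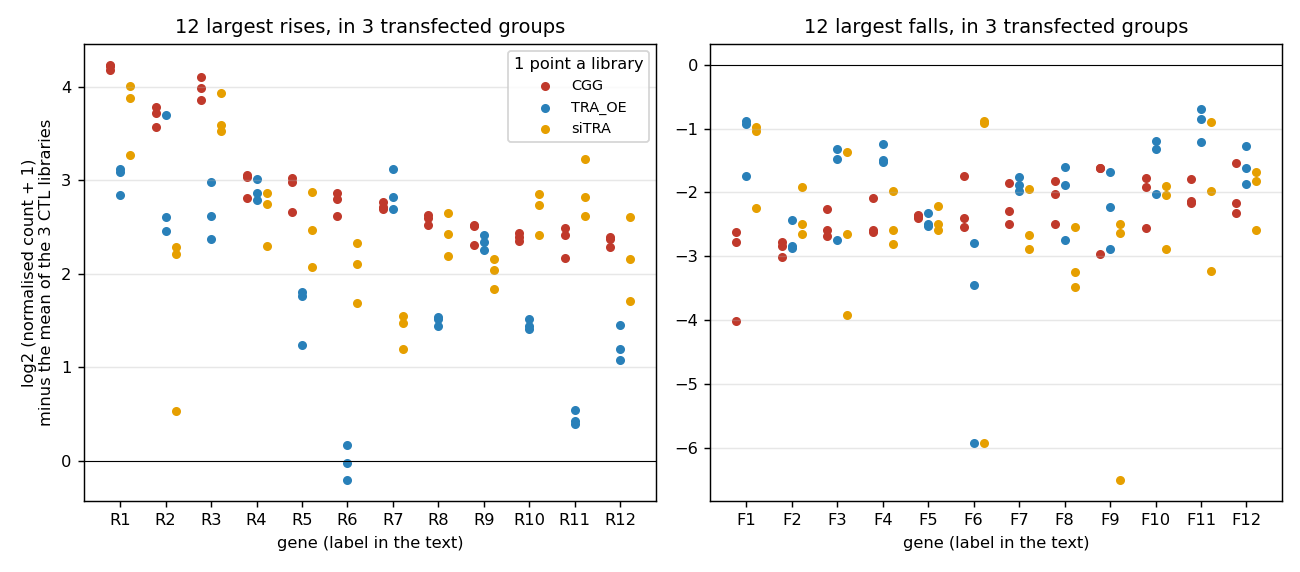
For the 12 rises (left) and 12 falls (right), log2 (normalised count + 1) in each CGG (red), TRA_OE (blue) and siTRA (orange) library minus the mean of the 3 CTL libraries, so that 0 is the level of CTL. R6 and R11 in TRA_OE lie under 1 while CGG lies over 2, and all 3 groups lie under -2 for F5.

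The last question was whether exons were used differently within genes. An exon bin is a stretch of exon that all or none of a set of annotated transcripts share, and relative use compares its change with that of the whole gene. Of 265486 bins in 12608 genes or gene groups, 665 (0.25%) passed edgeR's diffSpliceDGE test, 0.148% higher and 0.103% lower in use in CGG, in 326 genes or groups. The balance depended on the test: limma's diffSplice called 1420 higher and 2101 lower, and 2826 bins were higher and 3088 lower by the adjusted p of the authors' deposited table. Without CTL library b 156 were higher and 158 lower, and leaving out CTL library c took the count to 247. In simulated counts with a spread of their own for each bin, 35 of 136 calls of this test were false, against 5 of 98 for a test added afterwards that estimates each bin's spread. The added test called 545 bins in the real libraries, and 303 (0.114%) were called by both in the same direction, 206 higher and 97 lower. Of simulated calls made by both, 3 of 95 were false. The simulated bins were drawn independently, each with its own spread as the added test assumes, and no gene was changed as a whole. Real bins of a gene share reads. These rates therefore neither give the share of false calls in the real libraries nor rank the tests there. All 303 had an adjusted p under 0.05 and the same direction in the authors' deposited table. That table rests on the same libraries and made 5914 calls, so this is no independent check.

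A large part of these bins belonged to groups of overlapping genes: 198 of the 303 called by both, and 309 of the 665 (46.5%) against 16.7% of all bins tested. In such a group a rise of 1 gene moves the relative use of the bins of its neighbours, so it cannot be told apart from a change in splicing. The group with most such bins lies on chromosome 16 (29806106 to 29848039, 7 identifiers). Its 32 bins called by both tests all rose, from a sum of 13983 ± 311 to 26214 ± 1421 normalised counts, while the whole group went from 60750 ± 2613 to 67820 ± 3015. In a group of 3 identifiers on chromosome 14 (60734742 to 61083633), 20 bins all rose, from 2310 ± 88.4 to 5169 ± 327.

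The other 105 bins lay in 76 single genes, of which 32 were also called at gene level. Over all single genes tested, 24.4% were called. The most such bins in a single gene were 5, in a gene on chromosome 3 (48688003 to 48739746, 51 bins, all 5 lower) and one on chromosome 16 (69762306 to 69941741, 43 bins, 4 of the 5 higher). On chromosome 3 those bins together went from 440 ± 42.8 to 237 ± 36.1 while the gene went from 10050 ± 238 to 11211 ± 160. On chromosome 16 they went from 860 ± 120.4 to 1017 ± 89.7 while the gene went from 11564 ± 79.4 to 9790 ± 356. On chromosome 1 (244840638 to 244864560), 4 bins of 89 rose from 170 ± 28.7 to 412 ± 48.6 in a gene counted at 192985 ± 5595 in CTL and 185158 ± 3647 in CGG. A gene on the same chromosome (77944055 to 77979110) had 4 bins that rose from 486 ± 24.5 to 760 ± 95.0, against a gene total that went from 39187 ± 1506 to 34308 ± 1107. These genes were chosen after their values were seen.

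Wide bins were called more often than narrow ones. Both tests called 0.0566% of bins of up to 30 bases, 0.104% of those of up to 100, 0.117% of those of up to 300, 0.201% of those of up to 1000 and 0.292% of those over 1000 bases. By place, both tests called 0.0793% of the 3'-most bins of genes (10 bins), 0.0317% of the 5'-most (4 bins) and 0.120% of the bins between. With diffSpliceDGE alone the shares were 0.127%, 0.293% and 0.255%, so the order of the places depended on the test. The class of over 30 and up to 100 bases leaned most to gains, with 80 higher and 14 lower by both tests, against 59 and 50 in the next wider class. Wide bins hold more counts, and the part of depth in these shares was not tested. The classes include the 198 of 303 bins that lay in groups of overlapping genes. Bins of such a group can rise together, as 32 did in the group on chromosome 16. The classes were not split into groups and single genes, so the lean to gains is not read as splicing.

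The bin with the largest gain in use in a single gene was on chromosome 2 (232567528 to 232568020, 493 bases, here BR2). It counted 61.2, 80.0 and 80.0 in CTL and 313, 310 and 376 in CGG, or 0.571% ± 0.0766 and 2.21% ± 0.257 of the gene's count, while the gene itself went from 12903 ± 476 to 15062 ± 186. The log2 change in use was 1.95 (adjusted p = 1.14e-26, and 1.32e-07 by the added test). BR3 on chromosome 4 (56399401 to 56400783, 1383 bases) counted 91.3, 81.8 and 72.2 in CTL and 270, 245 and 276 in CGG. Its use went from 0.442% ± 0.0561 to 1.62% ± 0.101, against a gene that went from 18531 ± 526 to 16293 ± 556 (log2 change in use 1.88, adjusted p = 5.86e-21, and 2.98e-06 by the added test). Use of both bins was also above CTL in TRA_OE and siTRA: 1.78% ± 0.183 and 2.35% ± 0.109 for BR2, and 1.38% ± 0.193 and 1.88% ± 0.142 for BR3.

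A pair of the gains lay in groups of 3 overlapping identifiers. BR1 (chromosome 19, 42250173 to 42250330) counted 39.7, 24.2 and 38.1 in CTL and 137, 116 and 117 in CGG (log2 change in use 2.003, adjusted p = 3.88e-09, and 0.00064 by the added test). BR4 (chromosome 16, 83957651 to 83957738) counted 9.31 ± 1.69 and 86.5 ± 13.4, in a group that itself rose from 1180 ± 38.8 to 3059 ± 164 and in which 13 of 17 bins were called by both tests. BR5 (chromosome 14, 35404701 to 35404716, 16 bases) counted 8.59, 9.30 and 7.81 in CTL and 29.6, 60.9 and 61.0 in CGG. Its adjusted p of 0.0184 became 0.414 by the added test, so its gain in use is not a firm call.

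The losses in use were in bins of few counts within genes of many. BF4 (chromosome 12, 104288895 to 104288930, 36 bases) counted 74.1, 78.1 and 98.5 in CTL and 61.6, 31 and 68.3 in CGG, while its gene went from 52625 ± 500 to 101574 ± 2424 (log2 change in use -1.57, adjusted p = 2.3e-08, and 0.00245 by the added test). BF3 (chromosome 18, 46089759 to 46089821, 63 bases) went from 52.7 ± 6.28 to 16.7 ± 1.74 in a gene of 391493 ± 8125 and 409688 ± 4251 (log2 change in use -1.70, adjusted p = 0.000124, and 0.0422 by the added test). The gene of BF4 was called higher (log2 fold change 0.97), so part of its change in use is that rise. The gene of BF3 was not called (adjusted p = 0.46).

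For 3 bins the added test did not make the call. BF1 is a single base on chromosome 2 (200859747), at 65.5, 53 and 67.3 in CTL and 20.1, 10.3 and 19.5 in CGG (adjusted p = 0.000317, and 0.306 by the added test). BF2 is a bin of 7 bases on chromosome 7 (5529060 to 5529066), at 259 ± 40.3 and 59.1 ± 22.9 in an abundantly counted gene (adjusted p = 4e-08 and 0.0645). BF5 on chromosome 1 (151400901 to 151401052) went from 81.6 ± 16.9 to 32.3 ± 5.57 (adjusted p = 0.000102 and 0.0769).

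For 6311 splicing events in CGG vs CTL, the authors' deposited table gave a p-value and the change in the fraction of transcripts that include the alternative stretch (percent spliced in). In the authors' deposited table, 51 events (0.808%) in 51 genes had a p under 0.01 and a change of at least 0.1. A Benjamini-Hochberg adjustment of those p-values at 0.05 was passed by 84 (1.33%), and some of the 51 are not among the 84. By type, the 51 were 18 cassette exons, 8 alternative first exons, 8 complex events, 7 alternative last exons, 6 alternative 3' splice sites and 4 alternative 5' splice sites. The 129 retained introns and 41 mutually exclusive exons held 0 such events, and 12 and 2 with a p under 0.05, which 485 of all events (7.68%) had in the authors' deposited table. Of the 51 changes, 18 were positive and 33 negative: 5 and 13 for cassette exons, 2 and 6 for first exons, 6 and 1 for last exons, and 1 and 7 for complex events. Changes were modest, with a median size of 0.13 and a maximum of 0.248 in the authors' deposited table.

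The table does not say which group was subtracted. Its z scores had the sign opposite to the change in every named event, and the reason is not given in the sources used here. Bins lying inside a cassette event and touching neither end were found for 17 of the 18 cassette exons. Their share of the gene's count moved, CGG minus CTL, in the direction of the change in the authors' deposited table in 17 of 17. The sign is read as CGG minus CTL below. The libraries did not overlap in this share in 15. These events were picked by the authors' p for the same groups, which favours such separation, and its frequency over all bins is not given.

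The strongest event in the authors' deposited table was a cassette exon on chromosome 10 (26770345 to 26777065), with a change of -0.248 (p = 1.1e-15). Its inner bin (26771075 to 26771089, 15 bases) counted 443, 420 and 436 in CTL and 300.8, 253 and 224 in CGG, with no overlap. As a share of the gene this was 2.47% ± 0.0952 and 1.46% ± 0.211, while the gene stayed at 17535 ± 221 and 17801 ± 103. TRA_OE (1.31% ± 0.174) and siTRA (1.61% ± 0.0406) also lay below CTL. The share of this bin was thus below CTL in each of the 3 transfected groups.

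Several cassette events with a negative change had short inner bins. On chromosome 6 (167911489 to 167914168) the change in the authors' deposited table was -0.169 (p = 5.65e-10), and the inner bin of 21 bases counted 272, 224 and 260 in CTL and 142, 124 and 143 in CGG. The gene of this bin went from 24773 ± 620 to 19607 ± 410, and the bin's share of it went from 1.02% ± 0.0769 to 0.695% ± 0.0428. On chromosome 4 (159343404 to 159345106) it was -0.104 in the authors' deposited table, and the inner bin of 24 bases went from 170 ± 16.3 to 111 ± 6.78. On chromosome 2 (42264731 to 42280850) it was -0.119 in the authors' deposited table, and the bin of 33 bases went from 180 ± 10.7 to 128 ± 10.6. The genes of these last 2 events also had lower totals in CGG (9939 ± 721 to 7394 ± 97.8, and 18354 ± 96.8 to 16795 ± 202), so the share of the gene fell by less than the bin count. A short inner bin was also found with a positive change, 0.15 in the authors' deposited table, on chromosome X (96758258 to 96881579). There 21 bases counted 39.7, 45.6 and 50.7 in CTL and 55.7, 70.04 and 47.1 in CGG. The authors' p of that event was 0.0751 after the Benjamini-Hochberg adjustment.

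Longer inner stretches lost counts as well. An event on chromosome 2 (86151520 to 86158592) had a change of -0.13 in the authors' deposited table (p = 1.38e-10), with 1245, 1223 and 1201 counts inside in CTL and 1038, 911 and 1005 in CGG. One on chromosome 15 (59664120 to 59668892) had -0.203 in the authors' deposited table, with 422 ± 47.9 inside in CTL and 275 ± 13.9 in CGG, in a gene that hardly moved (22911 ± 1014 and 22672 ± 380). Among the 5 cassette exons with a positive change, one on chromosome 14 (73277293 to 73282359) had 0.111 in the authors' deposited table and counted 114, 107 and 108 in CTL and 146, 141 and 143 in CGG. In siTRA the same bins counted 82.6 ± 13, on the other side of CTL.

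**Figure D5:**
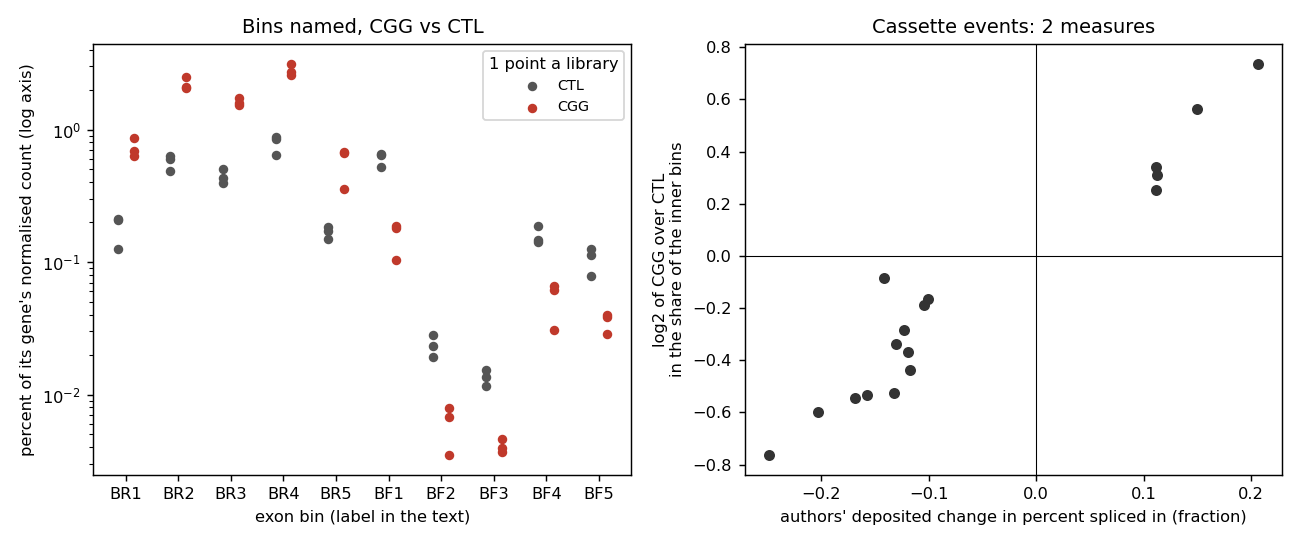
Left, the percent of its gene's normalised count held by each of the 10 named bins, on a log axis, with 1 point for each CTL (grey) and CGG (red) library. Right, for 17 cassette events, the change in inclusion from the authors' deposited table (x axis, as a fraction) against the log2 ratio of CGG to CTL in the share of the inner bins (y axis). All 17 points lie in the quadrants where both measures have the same sign.

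Among alternative first exons, one on chromosome 10 (24380869 to 24473228) had a change of -0.115 (p = 6e-13) and one on chromosome 7 (27142085 to 27152288) a change of -0.189 (p = 3.76e-10), both in the authors' deposited table. Another on chromosome 10 (6144919 to 6213623) had 0.165 in the authors' deposited table. For events of this kind the sign depends on which of the 2 paths was taken as inclusion, which the table does not give, so only the sizes are read.

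Among alternative last exons, events on chromosome 7 (102195603 to 102283163), chromosome 14 (75988977 to 76083740) and chromosome 10 (119580010 to 119588248) had changes of -0.129, 0.115 and 0.123 in the authors' deposited table. The named alternative 3' splice sites lay on chromosome 4 (109526249 to 109527322, -0.116, and 113509672 to 113513328, 0.182) and chromosome 8 (23566336 to 23568322, -0.163), by the authors' deposited table. The alternative 5' splice sites lay on chromosome 15 (50300902 to 50301257, 0.101), chromosome 9 (34402807 to 34405916, -0.191) and chromosome 2 (48451076 to 48454595, -0.125), by the authors' deposited table. Complex events lay on chromosome 10 (56358687 to 56358909, -0.118), chromosome 14 (103492034 to 103502882, -0.149) and chromosome X (41553915 to 41557032, -0.147), by the authors' deposited table. Each had a p under 0.01 there, and the table holds no value per library, so no spread can be set beside these changes. After the Benjamini-Hochberg adjustment the authors' p was above 0.05 for the 5' splice site on chromosome 2 (0.134). It was also above 0.05 for the last exon on chromosome 10 (0.0532).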

How the data were processed

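RNA was sequenced from TruSeq libraries depleted of ribosomal RNA, per the labels' protocols. The authors trimmed reads with cutadapt 1.14 and aligned them with STAR 2.5.2 to GRCh38.p10, per the submitters' processing notes, which also list DESeq2. The authors deposited raw counts per exon bin, a signal per bin scaled by 1 size factor per library (the normalised count), p-values with their adjusted form and a log2 change in use for each bin, and, per the file headers, p-values, z scores and the change in inclusion of each event (a fraction). Whether counting used strand is not given in the sources used here. A read spanning several bins is counted in each. Normalised values gave whole reads, within 0.1, for 100.0% of values, and 1623 cells were filled from them. Bins outside the count tables held 1.56% to 2.10% of a library's counts.

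Summing the 431444 bins gave 19997 units, genes or groups of genes that overlap. Those reaching a normalised count of 10 in 3 libraries were tested with edgeR 4.0.16 in R 4.3.3 (quasi-likelihood, TMM, Benjamini-Hochberg adjusted p under 0.05) in 1 fit of 15 libraries. Bin use was tested with diffSpliceDGE. The added bin test fits each bin with its gene's sum as offset, and was chosen after seeing the data. DESeq2 1.42.0 and limma 3.58.1 (log2 with a pseudocount of 1) were alternatives. Libraries are lettered by column order, since column numbers could not be tied to title replicates. The gene test was also run on simulated data for 14969 genes, with 200 of them changed. It recovered 66% of 1.5-fold and 75% of 2-fold changes with 5 false calls of 146. The bin test recovered 32% and 67% over 265486 bins, and the added bin test 28% and 65%. In the real libraries 3613 genes were called for CGG vs CTL. Recovery and false calls of the gene test with that many changes were not tested.

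Genes named are the 12 largest rises and 12 largest falls among called single genes that reach a mean of 50 in either group and whose libraries do not overlap (a paired name was also planned and could not be required), 4 each way for the other comparisons, 5 bins each way (1 per gene) and 3 events per type with the smallest p. Members and lists were chosen with earlier results of these data known. Gene lists by name, cell type markers and FMR1 were not tested, because no identifier was paired with a name. The replicates' count limits the precision of every SD given (n = 3).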

Additional observations from a re-analysis of the deposited data

How the results depend on the processing

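Limits of the comparison are the missing empty-vector group, 3 libraries a group, monkey reads on a human genome, and gene groups that cannot be separated. No paired analysis was possible because the count columns carry library numbers with no match to the replicates in the titles. With the groups compared fitted alone, the counts of genes called were 6265 for CGG vs CTL, 2377 for CGG vs TRA_OE and 1428 for CGG vs siTRA, and of bins 3230, where fewer libraries set the spread. Leaving out 1 library gave 2568 to 2853 genes for CGG vs CTL, 611 to 798 for CGG vs TRA_OE, 1323 to 2570 for CGG vs siTRA, and 247 (without CTL c) to 474 bins (295, 314, 273 and 263 without CTL a, CTL b, CGG b and CGG c); the 2 libraries then left in a group share the spread of the others. For bins, the authors' deposited DEXSeq adjusted p gave 5914 calls and limma's diffSplice 3521, and the cause was not tested. A change of at least 0.2 left 4 events. In CGG vs CTL 41.8% of called genes were higher with the authors' size factors, 42.1% with limma and 49.2% with TMM. Of 553 alternative values of the 50 named genes and bins, 527 kept their direction and side of the threshold, 26 (in 9 of them) lost the call, and 0 changed direction. Settings that gave a named gene no value are not among the 553. F1, F3 and F6 had none with the most counted bin standing for the gene. The genes on chromosomes X and 17 named against siTRA had none with DESeq2.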
